A study of Drosophila melanogaster with 4 samples.

Results

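The comparison described here set the array labelled TORC mutant against the array labelled rescue control, 1 array each and 2 of the 4 arrays of the series. Both were hybridised with biotin-labelled total RNA from heads of male Drosophila melanogaster that had fasted for 24 h, as were the remaining arrays, labelled WT control and TORC neuronal rescue. They were chosen because Crtc, the gene of the TORC protein, gave hardly any signal on either, so the ratio of mutant to rescue control describes what differed between a pair of heads that both lacked Crtc signal. The labels give neither the genotype of the rescue control, nor the lesion in Crtc, nor the driver of the neuronal rescue, nor how many flies went into an array. With 1 array a group there is no replicate error, and every difference below is a difference in size between single arrays, with no p-value.

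TORC, now named Crtc, is a coactivator of the transcription factor CREB. Salt-inducible kinases phosphorylate it and hold it in the cytoplasm, while calcineurin and cAMP signals release it to the nucleus, where it binds CREB and raises transcription of CREB targets. In flies it is known for its part in energy balance and in resistance to starvation, and neurons are a known site of its action. The protein is unrelated to the target of rapamycin kinase complexes that share the abbreviation.

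Signals are MAS5 probe set intensities on a linear scale. A signal under 14 was treated as too dim to measure and was raised to 14 before the log2 ratio was taken, so a fold against such a signal is a minimum, which "at least" marks. A gene was counted as different when its ratio reached 2-fold in either direction, a log2 ratio of 1 or beyond. Each gene stands for its brightest probe set, and its signals are given unraised, in the order WT control, mutant, rescue control, neuronal rescue.

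Crtc (Entrez gene 39970) had signals of 203.1, 3.8, 6.7 and 37.4. Both arrays of the comparison lay below the floor, so no ratio of Crtc between them could be measured. Whether its probe set lies in the part of the gene that the mutation removes is not known from the labels. None of the 5 genes on each side of Crtc in the annotation's order was called. Of these, CG34251, CG6034 and CG6052 lay below the floor on both arrays, so no difference could be measured for them. CG7460 lay below it on the mutant array, at 9.6 against 20.5 in the rescue control. Among the brighter neighbours, Pep had 685.3 on the mutant array and 720.6 on the rescue control array, CG7484 had 488.6 and 419.5, and Ccn had 281.7 and 313.3.

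The 18 measured genes of the CREB signalling list, out of 19 on the array, held no member that differed 2-fold, and their log2 ratios ran from -0.69 to 0.71. CrebB, the fly CREB gene, had signals of 46.8, 60.3, 53.4 and 48.2, and the arrays of the comparison differed by 0.18 on the log2 scale. The salt-inducible kinase gene Sik3 had 214.9, 269.2, 164.3 and 219.4, a log2 ratio of 0.71, the highest of the list. A further, dimmer probe set of Sik3 had 46.4 (mutant) and 15.7 (rescue control), a log2 ratio of 1.56, past 2-fold. The calcineurin subunit gene CanA1 had 79.3, 77, 123.8 and 88.5, a log2 ratio of -0.69, the lowest. The list's median was 0.10, against -0.0037 over the 8386 genes measured, and it was -0.18 when arrays were centred on head genes, as described below.

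Both arrays carried the transcripts of a fly head. The photoreceptor arrestin gene Arr2 had signals of 10698.4 (mutant) and 10454.4 (rescue control), the glial glutamine synthetase gene Gs2 had 7323.6 and 7213.8, and Gad1, the neuronal enzyme that makes GABA, had 3405.6 and 3486.3. Of 17 testis genes on the array, 16 lay below the floor on the mutant array and 12 on the rescue control array, with summed signals of 83 and 170, against 10138 (WT control) and 20156 (neuronal rescue). Of 15 ovary and eggshell genes, 13 lay below the floor on each of the compared arrays. The compared arrays were alike in overall brightness, with median signals of 19.4 and 20.2 against 36.2 and 36.85 on the remaining arrays. They differed in the 12 probe sets for the Bacillus transcripts added before labelling, whose geometric mean was 76.8 (mutant) and 351 (rescue control), beside 77.3 and 261 in the WT control and neuronal rescue. The 3′ to 5′ ratio of Act5C, which rises as RNA breaks down, was 2.68 for the mutant against 3.77 for the rescue control, that of eIF-4a 3.12 and 3.44, that of GAPDH 1.57 and 1.52, and that of a further actin control 2.25 and 1.88. The part of these control differences in the ratios below was not tested.

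Of 11981 genes with a probe set, 8386 reached the floor on the mutant array, the rescue control array or both, and 3595 did not. Of those measured, 97 were higher in the mutant by 2-fold or more (1.16%) and 219 lower (2.61%), 316 in all (3.77%). The rescue control signal was below the floor for 19 of the higher genes and the mutant signal for 104 of the lower ones, which leaves 78 higher and 115 lower among the 7679 genes above the floor on both arrays. Large differences lay mostly on the lower side, where 61 genes reached 4-fold and 31 reached 10-fold, against 5 and 3 on the higher side. The 3 genes beyond 10-fold on the higher side were the yolk protein genes. The genes nearest the threshold show how narrow it is: aus, at 189.1 and 94.6, fell just outside it and Akt, at 218.5 and 109.1, just inside. The antifungal peptide gene Mtk, at 3532.1 and 7098.8, was just inside on the lower side.

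**Figure D1:**
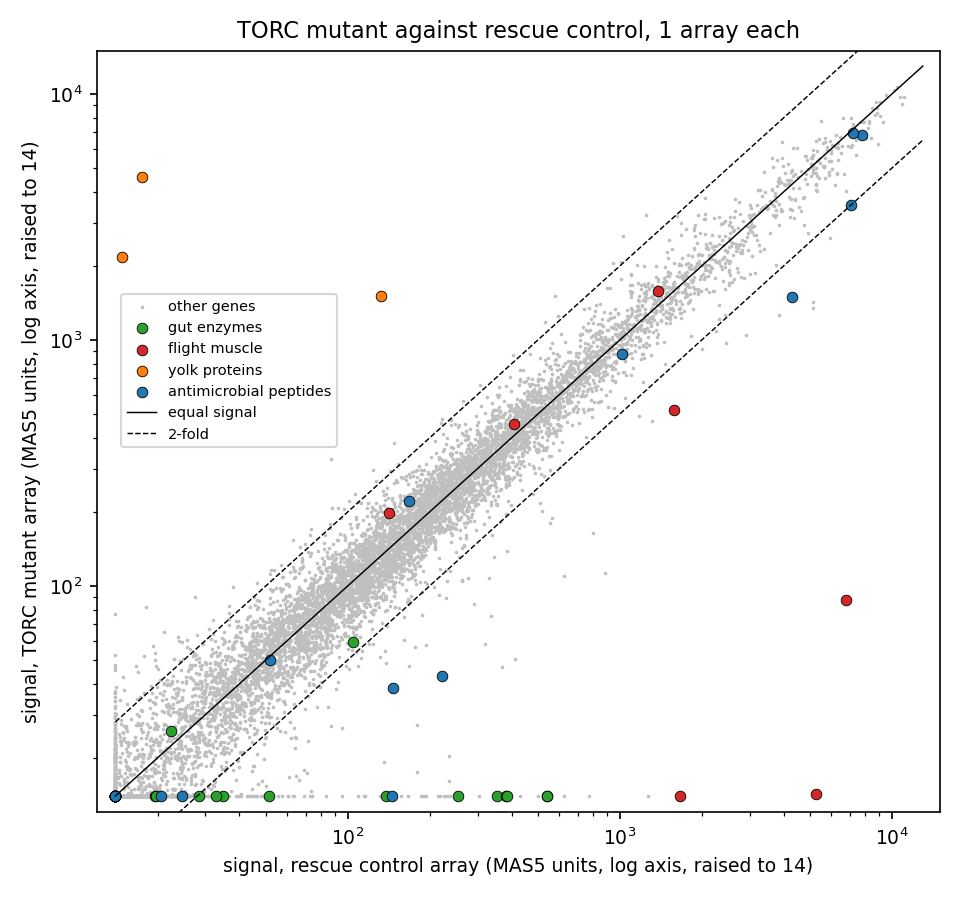
Signal of each of 11981 genes on the rescue control array (x axis) and the TORC mutant array (y axis), MAS5 units on log axes with signals below 14 raised to 14. The 3595 genes below the floor on both arrays share the point at 14. Coloured points are 4 gene lists, and dashed lines mark 2-fold. Most genes lie near the line of equal signal, while Yp1, Yp2 and Yp3 sit far above it and the flight muscle genes fln, Act88F and TpnC4 and most measured gut enzymes far below.

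The same rule applied to the other pairings gave more differences in each. The mutant and the WT control differed at 1589 genes (16.4% of those measured), the rescue control and the WT control at 1607 (16.4%), and the WT control and the neuronal rescue at 962 (9.64%). The neuronal rescue differed from the mutant at 2013 genes (20.4%) and from the rescue control at 1711. These pairings share arrays and are not independent of each other. When only genes above the floor on both arrays of a pairing were counted, the share was 2.51% between mutant and rescue control and 5.61% to 8.96% in the others. Across those 7679 genes the log2 signals of mutant and rescue control correlated at r = 0.97, with a robust SD of the log2 ratio of 0.32, where genes are not independent replicates.

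**Figure D2:**
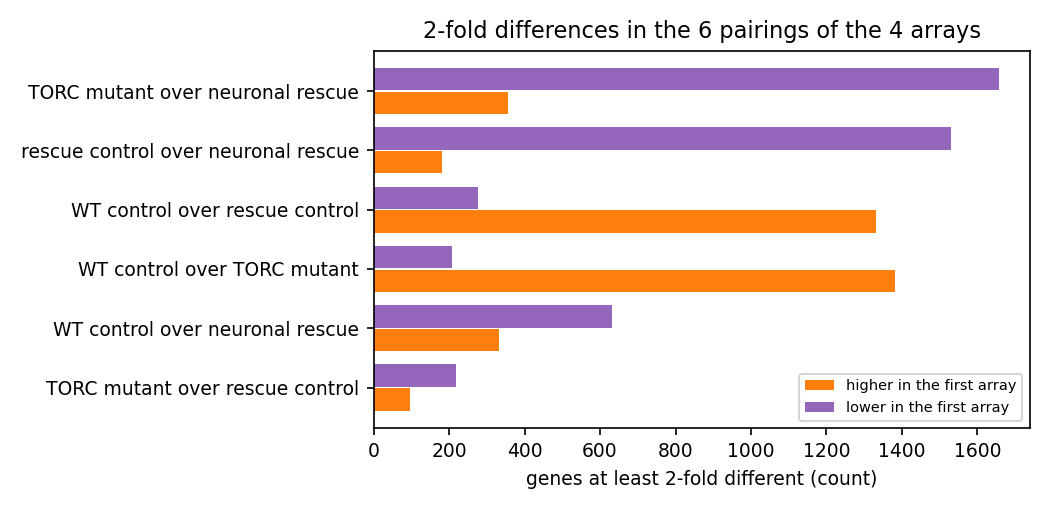
Number of genes 2-fold or more higher, or lower, in the first array of each of the 6 pairings of the 4 arrays (x axis, genes out of 11981; signals below 14 raised to 14). The TORC mutant over the rescue control has the fewest genes in all, 97 higher and 219 lower, although the WT control over the TORC mutant has 208 lower.

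When each array was centred on its photoreceptor, neuron and glia genes instead of the deposited scaling, the median log2 ratio of genes measured on both arrays moved from 0.01 to -0.26. It changed the split from 97 higher and 219 lower to 35 higher and 370 lower. Small list medians above 0 therefore depend on the scaling, and their value after this centring is given beside them as the head-centred median. Calls of dim genes depend on the floor. With the floor at 56 in place of 14, 27 of 81 named genes that were called lost the call, among them Acp62F, Akh, CG3823, CG42326, CG43089, Cpr50Cb, Cpr64Aa, Cpr64Ac, fred, GstD5, Larp4B, Mal-A8, mip130, ND-B8, ninaD, Obp19a, Obp46a, Obp99a, Octalpha2R, PGRP-LB, Pxd, Sr-CI, Tmtc1 and Zasp67.

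The yolk protein genes were the highest of all genes in the mutant over the rescue control. Yolk proteins are made in the fat body and ovarian follicle cells of females and are taken up by the oocyte. Yp1 (Entrez gene 31939) had signals of 3234.6, 4616.7, 17.6 and 4523.7, and was 262-fold higher in the mutant than in the rescue control (log2 ratio 8.04). Yp2 had 727.3, 2175.4, 14.8 and 1235.2, 147-fold higher, and Yp3 had 2338.5, 1508.1, 133 and 2033.5, 11.3-fold higher. For each of the 3 genes the rescue control was the low array, and the other 3 arrays lay between 727.3 and 4616.7. Every array was labelled male, although yolk proteins are products of females. The source of the yolk signals on those 3 arrays was not tested. The eggshell genes Cp36 and Vm26Aa lay below the floor, at 0.4 and 1.7 in the mutant and 4.1 and 11.6 in the rescue control. The 12 genes of sex determination and dosage compensation were all measured and none differed 2-fold on its brightest probe set. Among them dsx, the gene that directs sexual differentiation, had 166.1 and 144, and its activator tra had 179.7 and 177.3. The gene msl-2, whose protein equips the male X chromosome for dosage compensation, had 148.7 and 101. Sxl, also on this list, had 319.5 and 155.3 on a further probe set, 2.06-fold higher in the mutant. Whether the flies of the compared arrays differed in sex was not tested.

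Other secreted products of the fat body were short of 2-fold. Of 19 such genes 18 were measured and none differed 2-fold, with a median log2 ratio of 0.11 and a head-centred median of -0.14. Their log2 ratios ran from -0.76 for Obp99b, at 533.3 (mutant) and 902.3 (rescue control), to 0.80 for fit, at 264.5 and 151.4. The storage protein gene Lsp2 had signals of 1139, 8764.8, 8792.7 and 5511.5, and the log2 ratio between mutant and rescue control rounded to 0.00. The iron carrier gene Tsf1 had 2237.3, 5418.8, 4896.8 and 3699.5, and the lipid carrier gene apolpp 5806.4, 6643.2, 5676.9 and 6432.1. In a bulk sample of RNA, fewer cells of a type and less RNA per cell cannot be told apart, for the yolk and fat body genes and for the tissue markers that follow.

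The flight muscle genes fln, TpnC4 and Act88F were among the lowest in the mutant. Of 7 genes on the indirect flight muscle list, all measured, 4 were at least 2-fold lower and none higher, with a median log2 ratio of -1.61, or -0.72 over the 6 above the floor on both arrays. The thick filament protein gene fln (Entrez gene 40185) had signals of 2156.4, 14.2, 5250.8 and 358.6, lower in the mutant by 369.8-fold (log2 ratio -8.53). The flight muscle actin gene Act88F had 3116.1, 87.4, 6806.6 and 626.5, 77.9-fold lower. The flight muscle troponin C gene TpnC4 had 1053, 4.8, 1661.9 and 568.7, at least 119-fold lower. In all 3 the rescue control was the brightest array and the mutant the dimmest. A further troponin C gene, TpnC41C, had 2601.5, 520, 1583.4 and 1401.4, 3.04-fold lower. The remaining members were not called: Mlp84B, a muscle LIM protein gene, had 1579 (mutant) and 1384.9 (rescue control), and flr, which promotes actin turnover, had 198.5 and 141.6.

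Muscle genes of broader use differed less. Of 18 measured, 2 were lower and none higher, and the median log2 ratio was -0.21. Act79B, an actin of tubular adult muscle, had signals of 5142.3, 1354.8, 5121.9 and 3556.7, 3.78-fold lower in the mutant. The Z-disc protein gene Zasp67 had 15.7, 9.9, 53.3 and 13.3, at least 3.81-fold lower, and its rescue control signal was the only one to clear the floor by a wide margin. SERCA, the calcium pump of the muscle reticulum, had 6221.2 (mutant) and 6002.3 (rescue control), and the arginine kinase gene Argk1 had 6092.7 and 5794.2. Further probe sets of a pair of muscle genes gave other ratios. Strn-Mlck, a muscle myosin light chain kinase gene, belongs to the flight muscle list above. It had 582.2, 456.2, 407.8 and 354.2 on its brightest probe set (log2 ratio 0.16), but 631.2, 6.1, 1522.5 and 219.4 on another, at least 109-fold lower in the mutant. The muscle LIM protein gene Mlp60A had a log2 ratio of 0.24 on its brightest probe set and -3.68 and -3.47 on the other two, whose rescue control signals were 225.8 and 240.4. Strn-Mlck and Mlp60A are described here because their probe sets were seen to disagree.

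**Figure D3:**
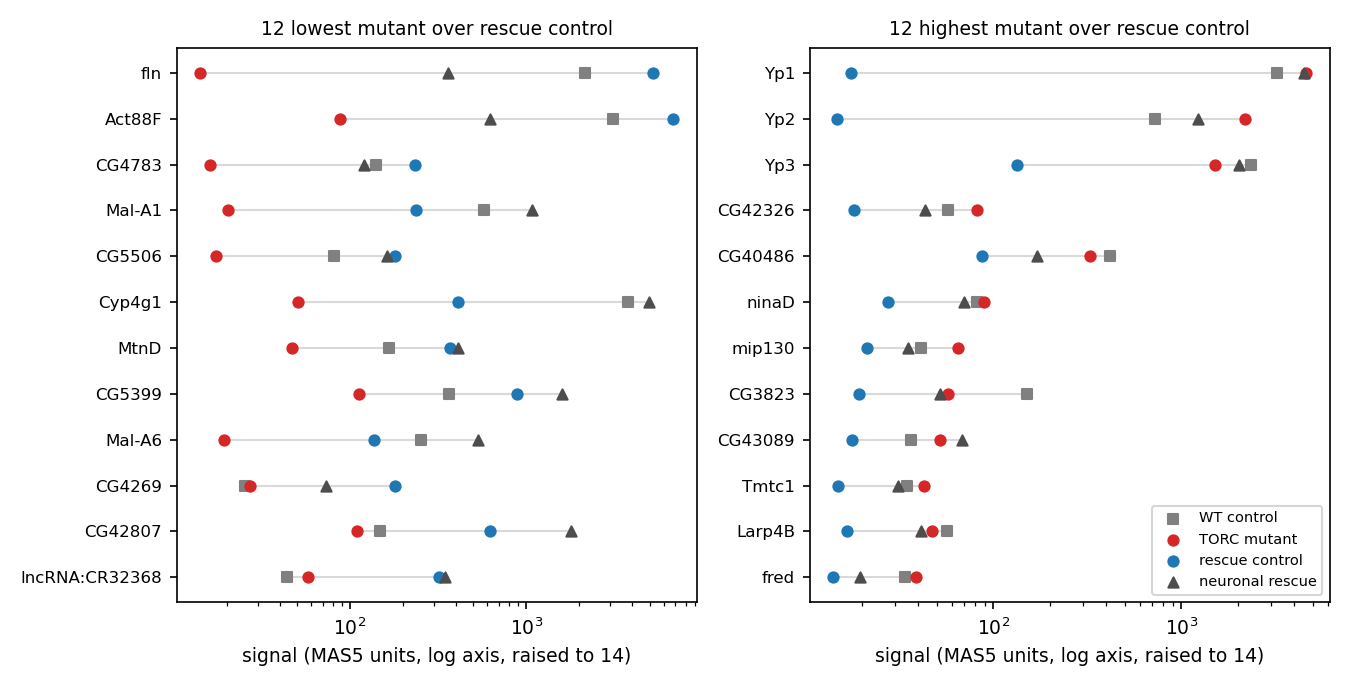
Signals on all 4 arrays (x axis, MAS5 units, log scale, raised to 14 where lower) of the 12 genes with the lowest and the 12 with the highest ratio of TORC mutant to rescue control among called genes above the floor on both. For fln and Act88F the mutant and the rescue control are the extremes of the 4 arrays; for Yp1, Yp2 and Yp3 the rescue control alone stands apart.

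Digestive enzyme genes of the gut lay almost entirely below the floor on the mutant array, and the rescue control array held some of them. Of 30 such genes on the array, 28 lay below the floor on the mutant array and 15 on the rescue control array, and their summed signals were 9703, 169, 3014 and 5867. Of the 15 measured in the comparison, 11 were at least 2-fold lower in the mutant and none higher. Their median log2 ratio of -1.88 rests on the floor, and it was -0.31 over the 2 members above the floor on both arrays. The trypsin gene alphaTry (Entrez gene 48316) had signals of 2347.1, 2.5, 541 and 1802.2, lower in the mutant by at least 38.6-fold. The nearby trypsin gene betaTry had 1915, 1.5, 539.5 and 488.4, at least 38.5-fold lower. The serine protease gene yip7 had 726.4, 1.7, 383.8 and 1007.9, at least 27.4-fold lower, and the related gene Jon74E had 576.4, 13.5, 381.5 and 216.3, at least 27.2-fold lower. Jon65Aiii and Jon65Aiv, proteases of the Jonah family, were at least 25.3-fold and 18.1-fold lower. Each of these genes was below the floor on the mutant array and had signals of 216.3 or more on the 3 other arrays. The lipase gene mag, one of the 2 genes of this list above the floor in the mutant, had 736, 59, 104.5 and 105.2 and was not called.

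Maltases, which split sugars taken in with food, followed the digestive enzymes in part. Of 11 on the array, the glucosidase gene tobi among them, 10 were measured, 4 were lower and none higher, with a median log2 ratio of -0.84, or -1.83 over the 5 above the floor on both arrays. Mal-A1 had signals of 575.6, 20.3, 235.6 and 1080.6, lower in the mutant by 11.6-fold, and Mal-A6 had 252.1, 19.3, 136.1 and 534.1, 7.05-fold lower. Mal-B1 was 3.56-fold lower, at 47.1 and 167.9, and Mal-A8 at least 2.09-fold lower, at 3.9 and 29.3. Not every maltase was dim in the mutant: Mal-A5 had 783.8 there and 553.8 in the rescue control, and Mal-B2 had 4029.1 and 6810.2.

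Cyp4g1, the P450 with which oenocytes make cuticular hydrocarbons, had signals of 3795.9, 50.7, 411.7 and 4984.5. It was lower in the mutant by 8.12-fold and dimmer on both than on the other arrays. The oenocyte fatty acid synthase genes FASN2 and FASN3 were below the floor on both compared arrays, at 0.5 and 4.9 in the mutant and 3.1 and 12.3 in the rescue control. Cyp4g1 was the only one of 67 measured P450 genes to differ 2-fold. The P450 median was 0.03, with a head-centred median of -0.25.

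Other genes among the lowest have no name beyond their annotation number. CG14645 had signals of 825.8, 1.2, 1266.7 and 610.3, lower in the mutant by at least 90.5-fold. CG34324 had 926.6, 7.4, 769.3 and 621.3, at least 55.0-fold lower, and CG16826 had 1660, 0.6, 624.6 and 4644.7, at least 44.6-fold lower. All 3 were bright on every array but the mutant. CG4783 was 14.6-fold lower, CG5506 10.3-fold, CG5399 7.82-fold, CG4269 6.62-fold, CG42807 5.68-fold and the noncoding RNA gene lncRNA:CR32368 5.52-fold. MtnD, a metallothionein gene of the metal response, had 166.3, 46.7, 368.6 and 408.2, 7.89-fold lower in the mutant.

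Some antimicrobial peptide genes, 5 of 12 measured, were brighter in the rescue control. These peptides are secreted by the fat body and by epithelia once the Toll or Imd pathway detects microbes. Of 14 on the array, 5 were at least 2-fold lower in the mutant and none was higher. The median log2 ratio was -0.69 over those measured and -0.22 over the 9 above the floor on both arrays. The attacin gene AttD had signals of 70.1, 43, 222.1 and 203.2, lower in the mutant by 5.17-fold. The cecropin gene CecB had 21.1, 38.6, 146.1 and 33.5, 3.78-fold lower, and the diptericin gene DptB had 474.5, 1491.9, 4292.9 and 1198.7, 2.88-fold lower. For CecB and DptB the rescue control stood above all other arrays, while for AttD the neuronal rescue was about as bright. Mtk had 1267.3, 3532.1, 7098.8 and 3453.9, 2.01-fold lower, and it missed 2-fold with quantile normalization. The infection-induced peptide gene edin had 48.3, 12.1, 144.9 and 136.6, at least 10.3-fold lower. Some members were near equal: the drosomycin gene Drs had 6801 (mutant) and 7760.6 (rescue control), and BomS2, a Bomanin gene, 6950.7 and 7210. Another Bomanin gene, BomS4, which is not on the list, had 2270.1, 1046.3, 2918.3 and 2303.2, 2.79-fold lower in the mutant. Drsl5, of the drosomycin family, had 221.1 and 168.6, and was the only member with a ratio above 0.

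Recognition and signalling genes of the same pathways showed fewer differences. Of 25 measured, 2 were lower and none higher, with a median log2 ratio of -0.22 and 18 of 25 below 0. The peptidoglycan-cleaving amidase gene PGRP-SC2 had signals of 152.7, 164.2, 797.7 and 319.1, 4.86-fold lower in the mutant. PGRP-LB, another amidase gene that dampens Imd signalling, had 63.1, 38.9, 79.4 and 54, 2.04-fold lower, and it missed 2-fold with quantile normalization. PGRP-SB1 had 1854.8 and 3004 and pirk, an inhibitor of the Imd receptor complex, 79.6 and 139.1, both short of 2-fold. Rel, the NF-kappaB factor of the Imd pathway, had 937.3 and 1251.5, and the Toll pathway factor gene dl 225.8 and 220.1. The 12 complement-like and melanization genes were all measured and none differed 2-fold (median 0.04, head-centred median -0.24). Of the 15 hemocyte genes, all measured, the scavenger receptor gene Sr-CI was 2.10-fold lower, at 47.1 and 98.9, though not with quantile normalization, and the rest were not called (median 0.20, head-centred median -0.08). The gut genes above were also brighter in the rescue control, and their part in the immune differences was not tested.

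Of 8 Turandot and JAK-STAT genes, 4 were measured and none differed 2-fold. The Turandot stress peptide gene TotC had signals of 28.8, 538.1, 307.8 and 18.8, a log2 ratio of 0.81, and the arrays without Crtc signal were the bright ones. The JAK-STAT factor gene Stat92E had 866.2, 2044.1, 1644.3 and 1205.5, a log2 ratio of 0.31.

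**Figure D4:**
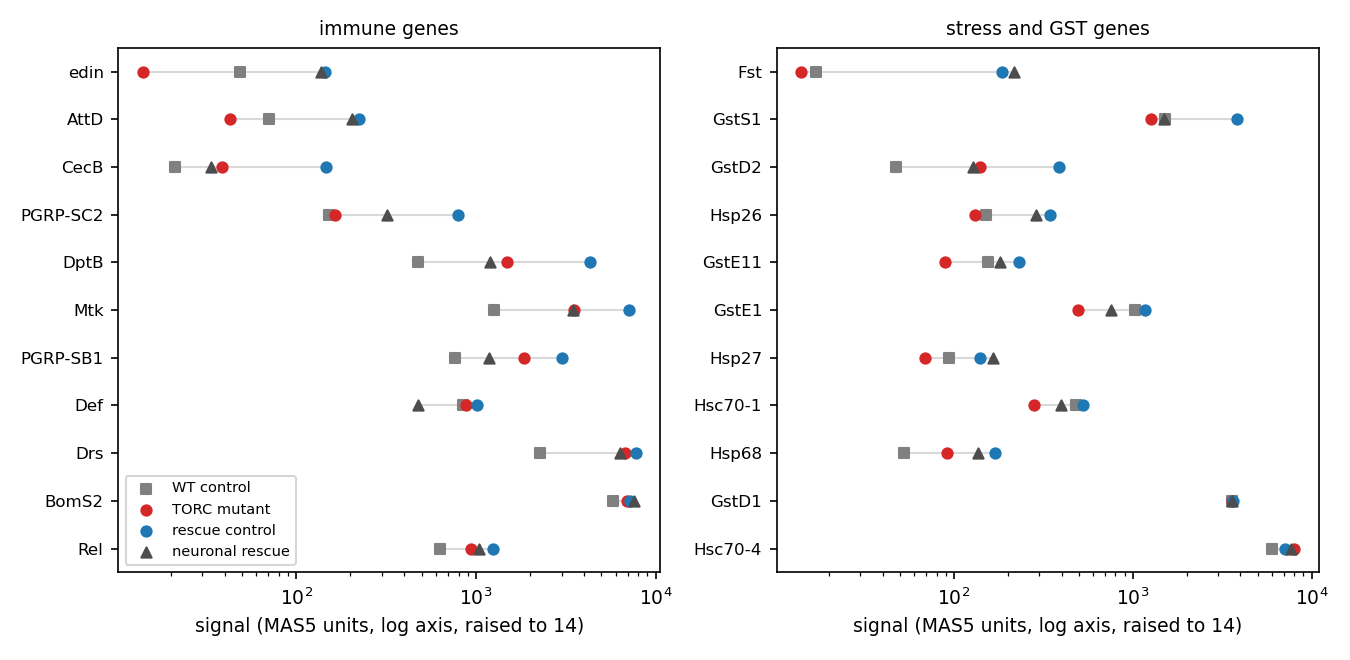
Signals on all 4 arrays (x axis, MAS5 units, log scale, raised to 14 where lower) of immune genes (left) and of chaperone, cold-response and glutathione S-transferase genes (right). The rescue control is the brightest array for CecB, PGRP-SC2, DptB, Mtk, GstS1 and GstD2, while Drs, BomS2, GstD1 and Hsc70-4 lie close together on the mutant and rescue control arrays.

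Some stress genes were dimmer in the mutant. Of 12 heat shock and chaperone genes, all measured, 3 were lower and none higher, with a median log2 ratio of -0.54. The cold-response gene Fst had signals of 17, 6.9, 186.2 and 216.9, lower in the mutant by at least 13.3-fold. The small heat shock protein gene Hsp26 had 151.4, 131.4, 344.7 and 289, 2.62-fold lower, and its neighbour Hsp27 had 94, 69, 139.6 and 164.9, 2.02-fold lower, though not with quantile normalization. For these 3 genes the mutant and the WT control were the dim arrays and the rescue control and the neuronal rescue the bright ones. The added Bacillus transcripts divide the arrays in the same way, and their part in these differences was not tested. The constitutive chaperone gene Hsc70-4 had 7986 (mutant) and 7086.7 (rescue control). Hsf, the heat shock factor gene, had 251.9 and 382.9, short of 2-fold.

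Among 30 measured glutathione S-transferase genes, which detoxify reactive compounds, 5 were lower and none higher, with a median of -0.04. GstS1, a transferase abundant in indirect flight muscle, had signals of 1514.8, 1266.2, 3841.4 and 1495.9, 3.03-fold lower in the mutant. GstD2 had 47.3, 138.9, 385.9 and 127.2, 2.78-fold lower. Both were brightest in the rescue control. GstE11, at 89 and 230.1, was 2.59-fold lower, GstE1, at 492.7 and 1173.6, 2.38-fold, and GstD5, close to the floor, 2.04-fold, though not with quantile normalization. The abundant member GstD1 had 3587, 3569.5, 3635.6 and 3578.2, nearly the same on every array. Of the 22 measured antioxidant genes, 16 had a log2 ratio below 0, and 3 were lower, namely GstS1, GstD2 and GstE1, which this list shares. The peroxidase gene Pxd was the 1 higher member, with 17.3, 82.6, 36.5 and 18.2, but a further probe set gave 31.4 (mutant) and 37.1 (rescue control). Pxd missed 2-fold with quantile normalization, head centring or the mean over probe sets. The metallothionein gene MtnA had 4731.1 and 6668.2, short of 2-fold.

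Called genes were often dim in either direction. The brighter of the 2 signals had a median of 65 over the 97 higher genes, of which 39 exceeded 100, and of 71.6 over the 219 lower genes, of which 95 did. The carotenoid uptake receptor gene ninaD, needed to make visual pigment, had signals of 81.9, 89.8, 27.5 and 70.3, 3.27-fold higher in the mutant than in the rescue control. It was the only one of 20 measured photoreceptor genes to differ 2-fold (median 0.12, head-centred median -0.16, where this list was itself part of the centring). The diacylglycerol kinase gene rdgA, at 875.9 and 466.5, and the lipid transfer protein gene rdgB, at 1626 and 894.4, both of the light response, were short of 2-fold. Arr1, the light-gated channel gene trp and the G protein gene Gbeta76C had log2 ratios of 0.05, 0.12 and -0.04. The eye pigment transporter gene bw had 164.6, 207.2, 87.3 and 94.3, 2.37-fold higher (short of 2-fold with head centring), and its second probe set gave 77.4 (mutant) and 22.9 (rescue control).

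Neuronal genes lay slightly above 0 as a list. Of 28 measured, 25 had a log2 ratio above 0, 1 was at least 2-fold higher and none lower, and the median was 0.29 (head-centred median 0.01, where this list was itself part of the centring). The median over all 8386 measured genes was -0.0037. Ratios also ran with gene length, as described below, and its part in this list was not tested. The vesicular glutamate transporter gene VGlut had signals of 211.7, 206.9, 92.1 and 61.9, 2.25-fold higher in the mutant, and it missed 2-fold with head centring. It also missed 2-fold with the mean over probe sets, where a further probe set, below the floor on every array, counted as a log2 ratio of 0. The complexin gene cpx, which controls vesicle release, had 6379.2 and 3959.9, and the RNA-binding protein gene fne 650.1 and 380.8, both short of 2-fold, while the synaptic vesicle protein gene nSyb had 780.5 and 803. Of 18 measured glial genes none differed 2-fold (median 0.22, head-centred median -0.06, where this list too was part of the centring). The glial fate gene repo had 584.6 and 357.4. The octopamine receptor gene Octalpha2R had 25.9, 52.6, 12.7 and 16.2, at least 3.76-fold higher in the mutant, with a signal not far above the floor.

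Odorant-binding proteins, which carry odorants in the fluid of sensory hairs, held 4 higher genes and 1 lower among 26 measured of 47 (median 0.21, head-centred median -0.07). Obp99a had signals of 128.6, 76.6, 4.2 and 254.1, at least 5.47-fold higher in the mutant than in the rescue control. Obp56g had 3107.1, 2655.2, 1024.2 and 3102.7, 2.59-fold higher. In both the rescue control was the low array. Obp57c, at 2081.2 and 1007.5, and Obp19a, at 29 and 13.5, were just past 2-fold and short of it with head centring, while Obp46a had 26.4 and 95.4, 3.61-fold lower. Of 166 odorant, gustatory and ionotropic receptor genes, only 16 were measured and none differed 2-fold.

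The rest of the 12 highest genes were mip130, a subunit of the Myb-MuvB complex, at 65 and 21.2, Larp4B, an RNA-binding protein gene, at 47.3 on the mutant array, fred, a cell adhesion gene, at 38.8 and 14.1, Tmtc1, at 42.7 and 14.9, and the unnamed genes CG42326, CG40486, CG3823 and CG43089. CG40486 had signals of 419.8, 327.2, 87.1 and 171, 3.76-fold higher. The mean over its probe sets was short of 2-fold, but its further probe set was below the floor on every array and counted there as a log2 ratio of 0. The rest of these genes were 2.75-fold to 4.52-fold higher in the mutant, and all of them lost the call with the floor at 56. Their mutant signals lay between 38.8 and 81.9, and their rescue control signals between 14.1 and 21.2.

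Genes of fuel use were mostly near equal between the compared arrays, and in the carbohydrate, lipid and methionine cycle lists only Pepck2 and Pglym78 reached 2-fold. The phosphoenolpyruvate carboxykinase gene Pepck2, whose enzyme feeds gluconeogenesis, had signals of 49, 3225.8, 1248.7 and 434.7, 2.58-fold higher in the mutant than in the rescue control. Its paralogue Pepck1 had 7603 and 8262.7. Of the 20 carbohydrate genes, all measured, Pepck2 was the only higher one and the phosphoglycerate mutase gene Pglym78, at 57.4 and 194.5 and 3.39-fold lower, the only lower one (median 0.04, head-centred median -0.23). Of 21 measured lipid genes none differed 2-fold, and their log2 ratios ran from -0.33 to 0.48. The lipid droplet gene Lsd-1 had 406, 1658.3, 1369.6 and 616.5, and the lipase gene bmm, which breaks down stored fat, 1369.4, 1354.1, 1661.7 and 1322.5. The glycine methyltransferase gene Gnmt had 331.3, 3839.7, 3727.1 and 1733.8, the methionine cycle gene Ahcy 591.1, 1812.1, 1701.1 and 1230.5, and all 10 genes of that list were short of 2-fold.

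Among insulin and adipokinetic hormone genes, 13 were measured, 1 was higher and 2 lower (median 0.08, head-centred median -0.20). ImpL2, whose protein binds insulin-like peptides, had signals of 432.1, 189.2, 562.8 and 219.6, 2.97-fold lower in the mutant. The adipokinetic hormone gene Akh had 17.8, 0.9, 48 and 15, at least 3.43-fold lower. The kinase gene Akt had 235.8, 218.5, 109.1 and 242, so the rescue control was the low array, and it missed 2-fold with quantile normalization or head centring. Ilp2, an insulin-like peptide gene of brain neurons, had 410.7 and 389.6. Of 24 measured neuropeptide genes only Proc, the proctolin gene, differed, with 51 (mutant) and 112.3 (rescue control), 2.20-fold lower, and that call was lost with quantile normalization. CCHa2, a peptide hormone gene of the fat body and gut, had 248.3, 1907, 2137.6 and 1627.9, with a log2 ratio of -0.16.

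Oxidative phosphorylation genes lay slightly below 0. Of 55 measured, 51 had a log2 ratio below 0 and the median was -0.23, but only ND-B8, a complex I subunit gene with signals of 0.7 and 48.4, reached 2-fold. The part of gene length, described below, in this list was not tested. The complex I gene ND-B16.6 had 1035.7 (mutant) and 1825.6 (rescue control), and the ATP synthase gene ATPsynbeta had 8105.4 and 9039.7. Medians were -0.14 over 26 proteasome genes and -0.08 over 69 mitochondrial ribosomal protein genes, with none called in either list. Over 35 measured cytosolic ribosomal protein genes the median was -0.05, or 0.01 with quantile normalization, and RpL27, at 2596 and 5912.6, was 2.28-fold lower. The 16 clock genes were all measured and none differed 2-fold on its brightest probe set, with tim at 1253.3 and 805.3 and per at 233.5 and 155.1 (median 0.13, head-centred median -0.15). A further probe set of tim had 489.3 (mutant) and 205.7 (rescue control), 2.38-fold higher in the mutant.

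The remaining lists held few differences. Of 17 accessory gland and ejaculatory tract genes, 4 were measured, and Acp62F, at 9 (mutant) and 29 (rescue control), was at least 2.07-fold lower. Of 16 measured serpin genes, which encode protease inhibitors, Spn88Eb was lower, with signals of 225.8, 1089.7, 2254.8 and 1672. Of 18 measured UDP-glycosyltransferase genes, Ugt37A3 was higher, at 172.5 and 86.2, and it missed 2-fold with quantile normalization or head centring. Of 41 measured cuticle protein genes, Cpr50Cb was higher, at 36.7 and 7.9, and Cpr64Aa and Cpr64Ac were lower, though not with quantile normalization, all dim. None of the 16 genes on the dopamine, serotonin and octopamine list differed 2-fold, and the octopamine receptor gene Octalpha2R, described above, is not on that list.

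**Figure D5:**
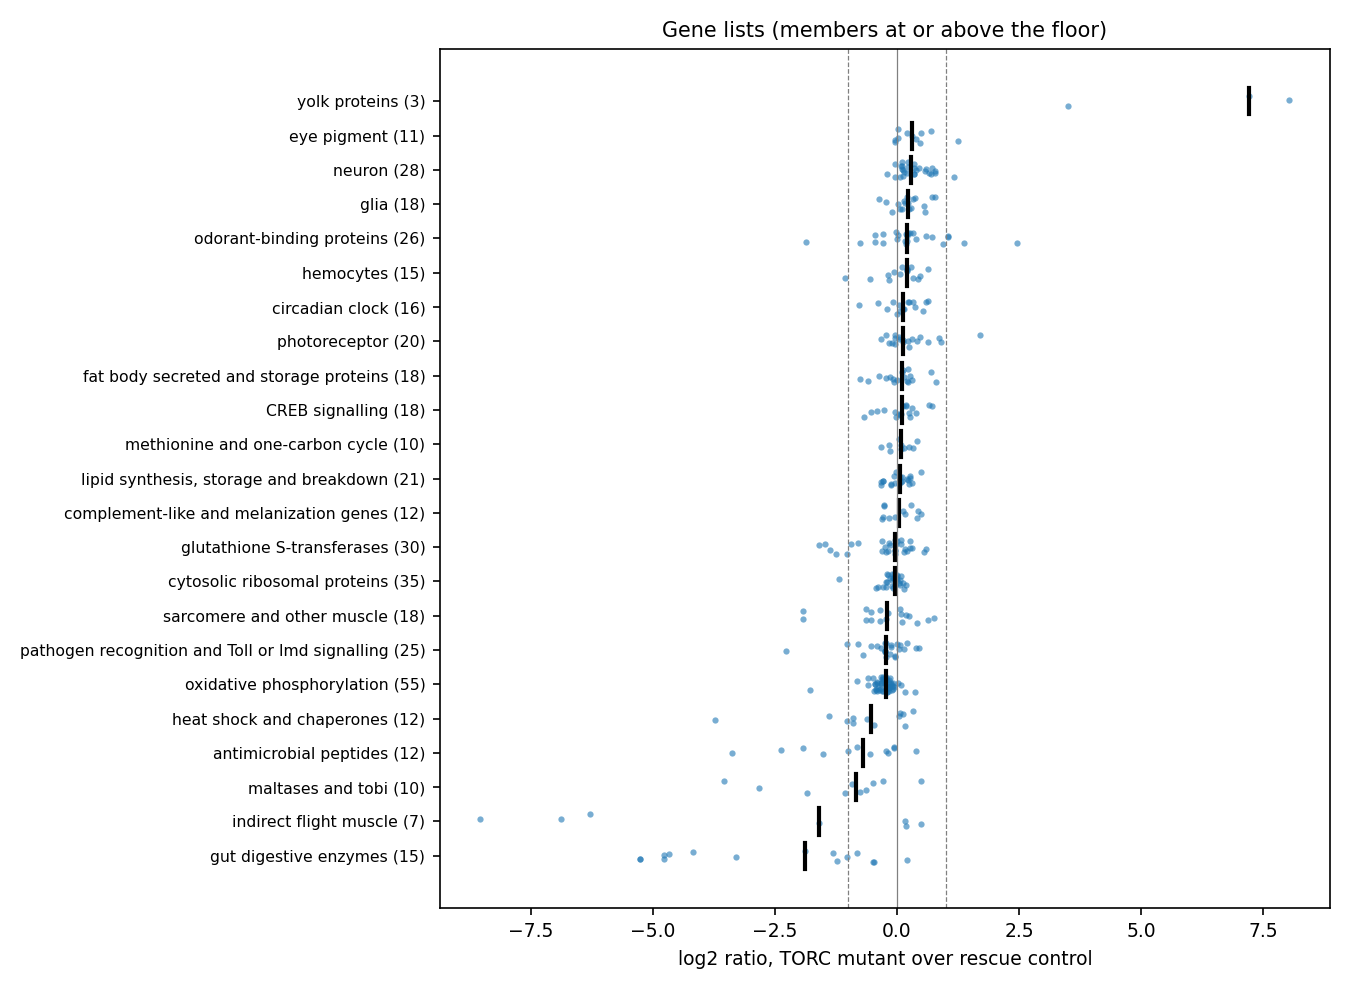
Log2 ratio of TORC mutant over rescue control (x axis) for the measured members of 23 gene lists, with the number measured in brackets; each point is a gene, black bars are list medians and dashed lines mark 2-fold. Yolk proteins stand far above 0, gut enzymes, flight muscle, maltases, antimicrobial peptides and chaperones have medians below 0, and the other lists gather around 0.

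The 2 other arrays show which member of the pair stood apart. Of the 219 lower genes, the mutant lay at least 2-fold below both the WT control and the neuronal rescue while the rescue control did not lie 2-fold outside their range for 82, TpnC4, betaTry and edin among them. For 16 lower genes the rescue control lay at least 2-fold above both while the mutant did not stand apart, among them CecB, DptB, Mtk, PGRP-SC2, GstS1, GstD2, Akh and Zasp67. For 5, fln and Act88F among them, both held at once, and for 20, alphaTry, Mal-A1 and Cyp4g1 among them, both arrays lay below. Neither array stood apart for the remaining 96. Of the 97 higher genes, the rescue control alone lay below both for 18, the yolk protein genes, ninaD, Obp56g, Obp99a and Akt among them, and the mutant alone lay above both for 7, Octalpha2R among them. Both lay above for 2, Pepck2 and Pxd, both below for 3, and neither stood apart for 67.

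Several lower genes were neighbours in the annotated gene order. Among measured genes, 16 runs of adjacent lower genes held 39 of the 219 lower genes (2.61% of those measured), the longest of 4. How many runs such a share would give in a random gene order was not tested. The trypsin genes alphaTry, epsilonTry and betaTry formed a run, as did yip7, Jon65Aiv and Jon65Aiii with CG10477, the chitinase genes Cht8, Cht4 and Cht9 with CG10527, and Hsp26 and Hsp27 with CG4461. The trypsin, Jonah and chitinase genes are families of paralogues, and cross-hybridisation between their probe sets was not tested. Of the 97 higher genes (1.16% of those measured), 6 stood in 3 runs of 2, namely Yp2 with Yp1, inaF-D with inaF-A, and CG40486 with CG40485.

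Probe sets of the same gene did not always give the same call. Of 711 genes with several probe sets measured, bw and hbt were called higher on each measured probe set and CG34040 lower on each. Of 595 genes with several probe sets above the floor on both arrays, 78 had a call on 1 or more. Over 470 genes with a pair of such probe sets, their differences gave a robust SD of 0.41 for the log2 ratio of 1 probe set, so a call near 2-fold on 1 probe set is not secure. Among 9396 measured probe sets, 180 were higher (1.92%) and 235 lower (2.5%), 415 in all (4.42%). Probe sets of CG40485 were called in opposite directions, with log2 ratios of 1.11 and -1.37, as were those of CG34353 and of Ank2, whose brightest probe set had -1.33.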

How the data were processed

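Head RNA of fasted males, as labelled, was measured on 4 Affymetrix arrays, 1 per group, and groups were taken from the sample titles. The authors deposited an intensity per probe set on a linear scale. The submitters' processing notes name MAS5 for this step. Its version is not given in the sources used here. In the values themselves all 4 columns had a 2% trimmed mean of 150, and no further scaling was applied. The number of arrays limits the precision.

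Of 18952 probe sets 183 were controls. Of the other 18769, 13646 had 1 gene symbol in the platform annotation, 402 had several and 4721 none, and those 2 kinds were left unnamed. Entrez identifiers of 13543 matched RefSeq (Release 6 assembly), and 0 symbols changed. RefSeq gave names and gene order, and no coordinates are printed, since the array's build is not named. No sequences are shown.

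Signals below 14 were raised to 14, the log2 ratio of mutant over rescue control was taken per probe set, and 2-fold was the threshold. A gene stands for the probe set with the highest mean log2 signal over the 4 arrays. Named genes were Crtc and the 5 genes on each side, the 12 highest and 12 lowest called genes above the floor on both arrays, and the 5 largest bounds each way. From each of 41 gene lists came the called members (the 6 largest where more were called) and up to 4 uncalled members with the highest mean signal. List members named besides these, aus, BomS4, and genes named for their position, gene order or probe sets were chosen after their values were seen. The comparison, members and lists were chosen with earlier results of these data known.

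Alternatives were floors of 7, 28 and 56, quantile normalization, median centring, centring on the photoreceptor, neuronal and glial lists, genes above the floor on both arrays only, thresholds of 1.5-fold and 3-fold, the mean over probe sets and, added after seeing the data, omission of genes on the tissue lists. The work was done in Python 3.11.15 with pandas 2.3.3, numpy 2.4.6, scipy 1.17.1 and, for plots, matplotlib 3.10.9.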

Additional observations from a re-analysis of the deposited data

How the results depend on the processing

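No paired analysis was possible because each group had 1 array, and for the same reason no replicate could be left out. The main counts were 97 genes higher and 219 lower in the mutant than in the rescue control, and 180 and 235 probe sets. A floor of 7 gave 198 and 443 genes (351 and 492 probe sets), a floor of 28 gave 56 and 130 (86 and 139), and a floor of 56 gave 38 and 92 (50 and 98). With head list centring the counts were 35 and 370 genes (68 and 402 probe sets). A threshold of 1.5-fold gave 522 and 640 genes (764 and 698 probe sets) and one of 3-fold gave 12 and 102 (24 and 105). Use of genes above the floor on both arrays only left 115 lower genes and 127 lower probe sets. Quantile normalization (107 and 243 genes), median centring (98 and 214), the mean over probe sets (78 and 213) and omission of the tissue list genes (94 and 196) kept the gene counts within 1.5 times. Of 81 named genes called, none was called in the opposite direction under the settings at which they were followed. Those kept were 81 with the floor at 7, 63 at 28, 54 at 56, 69 with quantile normalization, 81 with median centring, 74 with head centring, 57 of the 57 above the floor on both arrays, and 77 with the mean over probe sets. That mean counts a probe set below the floor on both arrays as equal, which by itself lowers a ratio. Medians of the yolk, gut, maltase, flight muscle, antimicrobial and chaperone lists kept their sign throughout, but their size varied with the setting: the gut median ran from -2.74 to -0.31, the flight muscle median from -2.30 to -0.72, the maltase median from -1.83 to -0.82 and the antimicrobial median from -1.01 to -0.22. Differences close to 2-fold in dim genes are the least secure, and no value here measures variation between flies or RNA preparations.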

Other observations

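Ratios of mutant to rescue control ran with the length of the gene. The 8355 measured genes with a span in the Release 6 annotation (99.6% of those measured) were put into 5 classes of near-equal size by that span. The median log2 ratio was -0.12 in the shortest class, then -0.08, -0.02 and 0.04, and 0.17 in the longest, whose median span was 19.9 kb against 0.965 kb in the shortest. The shortest class held 11 higher and 97 lower genes and the longest 49 higher and 15 lower. Among genes with signals above 100 on both arrays, the medians of these end classes were -0.10 and 0.16. Pairings without the mutant showed such a gap too. Over 4234 genes above 100 on all arrays, the medians of the longest and the shortest class were 0.15 and -0.10 for the mutant over the rescue control. They were 0.39 and -0.06 for the mutant over the neuronal rescue, 0.20 and -0.09 for the WT control over the neuronal rescue, and 0.24 and 0.05 for the rescue control over the neuronal rescue. For the WT control they were -0.02 and -0.12 over the rescue control and -0.18 and -0.03 over the mutant. These pairings share arrays. Of the 3′ to 5′ ratios given above, those of Act5C and eIF-4a were lower for the mutant than for the rescue control, that of GAPDH was about equal and that of the further actin control was higher, and their part in this pattern was not tested.

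Probe sets that did not stand for their gene were more often higher than lower. Of 1010 measured, 83 were higher in the mutant by 2-fold or more (8.22%) and 16 lower (1.58%). Over all 9396 measured probe sets with 1 symbol the shares were 1.92% and 2.5%. The photoreceptor matrix gene eys had a log2 ratio of 0.25 on its brightest probe set and of at least 2.68, 2.14 and at least 1.89 on the others. The synaptic active zone gene brp had 0.79 on its brightest probe set and at least 1.76 on another, and Sik3 had 0.71 and 1.56. These genes were picked after their values were seen, and the further probe sets were dimmer: for eys 66.2 (mutant) and 15 (rescue control) on one, against 807.7 and 678.2 on the brightest.

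Of 5123 probe sets with no symbol or several, 1342 were measured, 23 were higher in the mutant (1.71%) and 39 lower (2.91%).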
